A study of Homo sapiens with 8 samples.

Results

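The genes followed here were 10: the aldo-keto reductases AKR1B10, AKR1C1, AKR1C2 and AKR1C3, and the NRF2 pathway genes NQO1, GCLM, TXNRD1, SRXN1, HMOX1 and NFE2L2. They were taken by gene name from the probes of a 1-colour Agilent expression array, and 9 of the 10 had a probe of that name, 11 of the 34127 gene probes on the array. No probe was named AKR1C2. The AKR1 genes were chosen by their rise under siRNA in Capan-1 cells on these same arrays, and the others were added to see whether that rise extended to them. Values of the Capan-1 siRNA contrast are therefore a description of the genes and carry no test. Intervals printed for that contrast are not read as tests either.

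The 8 arrays held total RNA from 2 cell lines of pancreatic ductal adenocarcinoma, with 2 arrays in each of 4 groups. MIA PaCa-2 is a line from a primary tumour and Capan-1 a line from a liver metastasis. In each line, cells taken 48 h after transfection with 10 nM of a siRNA against HOXB7, a homeobox transcription factor, were compared with untreated parental cells. No array of a control siRNA was used here, so the siRNA and the transfection cannot be told apart. Each line was kept in its own medium and hybridised on its own slide, and on both slides siRNA and parental RNA lay at different positions, so line, medium and slide, and treatment and position, cannot be told apart. Nothing in the labels says that the 2 arrays of a group came from separate cultures, and p-values measure only the spread between these arrays. In bulk RNA, fewer cells of a type and less RNA per cell cannot be told apart.

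NRF2, the product of NFE2L2, is a transcription factor that is held in the cytoplasm and sent to degradation by KEAP1 with the CUL3 ubiquitin ligase. Oxidants and electrophiles release it, and with a small MAF partner it binds antioxidant response elements and switches on genes for detoxification, glutathione and NADPH supply. The AKR1 enzymes use NADPH to reduce aldehydes, ketones, steroids and prostaglandins, and several are known NRF2 targets that are high in tumours with an active pathway.

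Which transcripts each probe could read was examined first. Probe sequences of the AKR1 genes are shown because 1 gene name can stand for several reductases, with the start or stop codon in capitals and hg18 positions.
AKR1C1 probe 2, chr10:4995636-4995695, + strand: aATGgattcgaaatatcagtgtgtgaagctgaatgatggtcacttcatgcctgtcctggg
AKR1B10 probe 1, chr7:133876339-133876398, + strand, first 46 bases: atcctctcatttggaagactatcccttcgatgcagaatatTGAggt
AKR1C3 probe, chr10:5137789-5137848, + strand, within the coding part: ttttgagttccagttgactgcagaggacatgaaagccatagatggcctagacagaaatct
AKR1C1 probe 2 starts 1 base before the start codon. Both AKR1C1 probes also list accessions that RefSeq now gives to AKR1C2, so these 2 genes could not be told apart, and the values given for AKR1C1 may include both. AKR1B10 probe 2, at chr7:133876479-133876538, listed AKR1B10 alone, as did probe 1, while the probe named AKR1B15 also listed AKR1B10.

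The NFE2L2 probe is shown because it was not well above background on any array.
NFE2L2 probe, chr2:177803939-177803998, - strand, within the coding part: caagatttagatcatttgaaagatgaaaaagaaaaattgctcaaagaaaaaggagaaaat
GC content of the 11 member probes ran from 25.0% to 45.0%, and the NFE2L2 probe was at 25.0%.

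The HOXB7 siRNA was checked on the HOXB7 probe. Levels here are log2 intensities relative to the 75th percentile of the same array, which is 0 on this scale. HOXB7 was at -7.76 and -7.78 after siRNA in MIA PaCa-2, not well above background, and at -4.82 and -4.09 without it. As a lower bound, HOXB7 was at least 2.81-fold lower after siRNA in MIA PaCa-2, and the bound carries no test. Its measured log2 fold change of -3.32, which uses the values not well above background, was called (limma, adjusted p = 0.0129). Other processing ended this call in 4 alternatives, among them normexp background correction (adjusted p = 0.596). In Capan-1 it was at -5.26 and -4.80 after siRNA and at -2.48 and -2.34 in parental cells, which is 6.13-fold lower, and its log2 fold change of -2.62 became -0.66 with normexp. Across the arrays 69.2% to 74.3% of spots were well above background and no spot was saturated.

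AKR1B10, a reductase of retinal and reactive aldehydes, was seen in Capan-1. Probe 1 stood at 1.46 and 1.43 on the Capan-1 siRNA arrays and at 0.36 and 0.38 on the parental arrays. Probe 2 stood at 1.41 and 1.32 against 0.30 and 0.34. On both probes every siRNA array was above every parental array, by about the same amount. The log2 fold change was 1.08 ± 0.29 (SE, 95% interval 0.38 to 1.77) for probe 1 and 1.05 ± 0.19 (SE) for probe 2. These are levels 2.11-fold and 2.06-fold higher after siRNA. Here and below, SEs and intervals come from 1 fit over all 8 arrays, which pools the spread of both lines. On probe 1 the SD between arrays was 0.025 and 0.013 in Capan-1 siRNA and parental cells, and 0.34 and 0.60 in MIA PaCa-2. Its SE thus reflects mostly the MIA PaCa-2 arrays.

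In MIA PaCa-2, AKR1B10 was at or near background on all arrays. Probe 1 read -6.03 and -6.51 after siRNA and -5.11 and -5.95 in parental cells, and only 1 of these 4 arrays, a parental one, was well above background. Probe 2 read -7.87 and -7.89 after siRNA and -8.20 and -7.61 in parental cells, with none of the 4 well above background. The siRNA effect on AKR1B10 in MIA PaCa-2 therefore could not be measured.

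AKR1C1 and AKR1C2 inactivate progesterone and other steroid hormones. AKR1C1 probe 1 stood at 1.75 and 1.83 in siRNA-treated Capan-1 and at 1.00 and 0.91 in the parental cells. Probe 2 stood at 0.034 and 0.067 against -0.59 and -0.55. The groups did not overlap on either probe. On probe 2 the SD between arrays was 0.023 and 0.026 in Capan-1 siRNA and parental cells. It was 0.53 and 0.13 in MIA PaCa-2, which widens the pooled SE of this probe. In Capan-1 the change on the log2 scale was 0.83 ± 0.11 (SE, 95% interval 0.57 to 1.10) for probe 1, which is 1.78-fold, and 0.62 ± 0.23 (0.054 to 1.18) for probe 2, which is 1.54-fold.

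The same AKR1C1 probes gave no call in MIA PaCa-2. Probe 1 was at 2.93 and 2.77 after siRNA and at 2.86 and 3.07 in parental cells. Probe 2 was at 0.75 and -0.0048 after siRNA and at 0.44 and 0.25 in parental cells. The groups overlapped on both probes, and the 2 siRNA arrays of probe 2 lay farther apart than any other pair of arrays of an AKR1C1 probe. The log2 fold change was -0.11 ± 0.11 (SE, 95% interval -0.38 to 0.16, limma adjusted p = 0.613) for probe 1 and 0.025 ± 0.23 (-0.54 to 0.59, adjusted p = 0.968) for probe 2. The difference between the lines on probe 1, MIA PaCa-2 minus Capan-1, was -0.95 (95% interval -1.33 to -0.56), and for probe 2 it was -0.59 (-1.41 to 0.23). These differences include the contrast that chose the genes and were not tested.

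AKR1C3, which makes testosterone and prostaglandin F from their precursors, changed less in Capan-1. It stood at 4.14 and 4.32 after siRNA and at 3.92 and 3.88 in parental cells. Both siRNA arrays were the higher ones, with a log2 fold change of 0.33 ± 0.17 (SE, 95% interval -0.079 to 0.74) that turned to -0.068 under scaling to the spike-in probes. That scaling moved the median of all Capan-1 probes to -0.40. In MIA PaCa-2 it stood at 0.62 and 0.46 after siRNA and at 0.41 and 0.89 in parental cells, and the parental arrays enclosed the siRNA arrays. The log2 fold change there was -0.11 ± 0.17 (-0.52 to 0.30, limma adjusted p = 0.767).

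**Figure D1:**
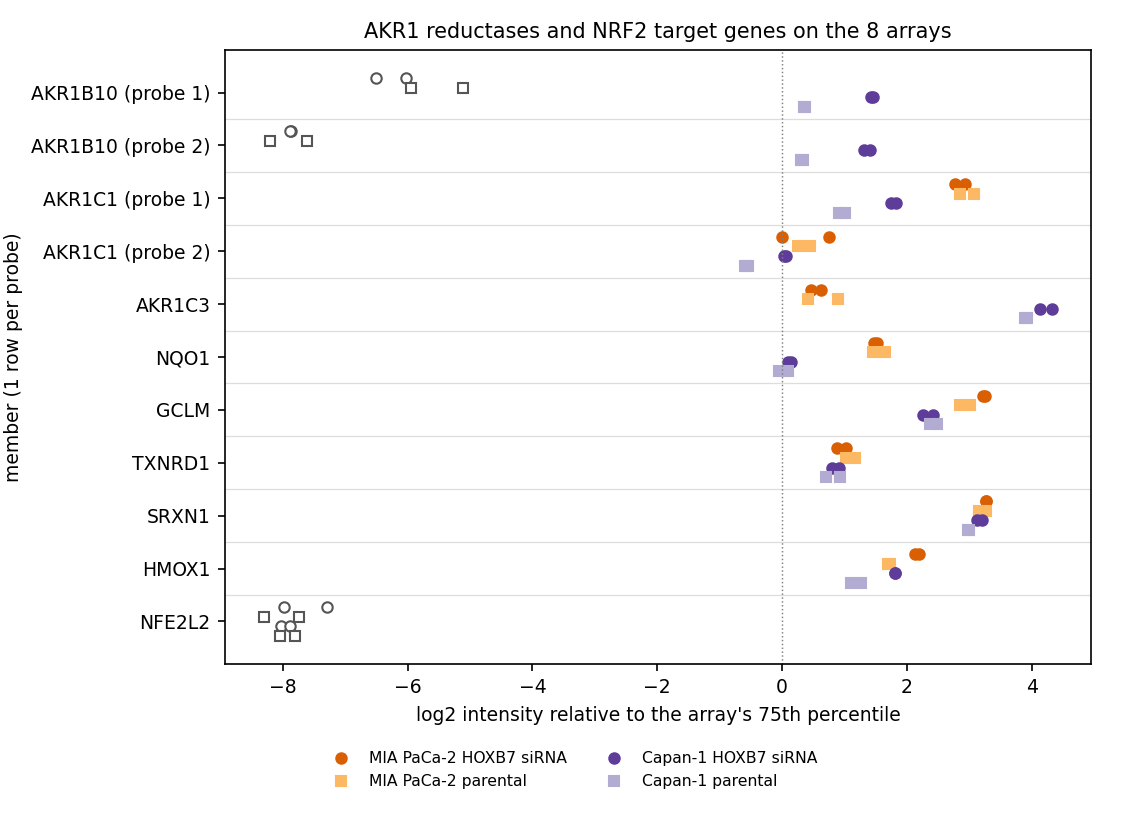
Log2 intensity relative to the array's 75th percentile (x axis) of each of the 11 member probes (rows) on the 8 arrays, 1 point per array. Open points are groups in which the probe was not well above background on both arrays, among them AKR1B10 in MIA PaCa-2 and NFE2L2 in all 4 groups, and in Capan-1 the siRNA points of all 5 AKR1 probes lie to the right of the parental points (AKR1C3 turned below 0 under spike-in scaling).

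Of the 5 target genes among the members outside the AKR1 family, HMOX1 showed the largest difference in both lines. HMOX1 is heme oxygenase, which breaks down heme and is repressed by BACH1 as well as switched on by NRF2. Its probe was printed as 10 spots on each array, of which 8 to 10 were used, and the SD between spots of an array ran from 0.038 to 0.081. In Capan-1 it stood at 1.81 and 1.82 after siRNA and at 1.27 and 1.10 in parental cells. HMOX1 thus had a log2 fold change of 0.63 ± 0.087 (SE, 95% interval 0.41 to 0.84), or 1.54-fold higher.

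In MIA PaCa-2, HMOX1 stood at 2.19 and 2.14 after siRNA and at 1.69 and 1.73 in parental cells. The groups did not overlap. Its log2 fold change of 0.45 ± 0.087 (SE, 95% interval 0.24 to 0.67), 1.37-fold higher, did not pass the test (limma adjusted p = 0.0560). It passed in 3 of 19 alternatives, and its adjusted p ran from 0.0184 to 0.702 over them. The difference between the lines was -0.17 (95% interval -0.48 to 0.13) and was not tested.

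The other 4 targets showed smaller differences in Capan-1. NQO1, a quinone reductase often used as a readout of NRF2, stood at 0.14 and 0.100 after siRNA and at -0.050 and 0.092 in parental cells. Its log2 fold change in Capan-1 was 0.098 ± 0.100 (SE, 95% interval -0.14 to 0.34). SRXN1, the sulfiredoxin that restores oxidised peroxiredoxins, stood at 3.20 and 3.13 against 2.99 and 2.98. Its log2 fold change was 0.18 ± 0.081 (-0.022 to 0.37), and like NQO1 its siRNA arrays both lay above the parental arrays. TXNRD1, thioredoxin reductase, stood at 0.80 and 0.91 against 0.70 and 0.92, with overlapping groups and a log2 fold change of 0.042 ± 0.12 (-0.24 to 0.32). GCLM, the modifier subunit of the first enzyme of glutathione synthesis, stood at 2.41 and 2.26 against 2.48 and 2.37. The groups overlapped, and the log2 fold change was -0.093 ± 0.10 (-0.34 to 0.15).

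In MIA PaCa-2 none of these 4 genes passed the test. GCLM stood at 3.22 and 3.26 after siRNA and at 2.86 and 3.02 in parental cells, and the groups did not overlap. The log2 fold change of GCLM was 0.30 ± 0.10 (SE, 95% interval 0.054 to 0.55, limma adjusted p = 0.168). TXNRD1 stood at 0.88 and 1.02 against 1.17 and 1.02, with the nearest arrays of the groups level to 2 decimals and a log2 fold change of -0.14 ± 0.12 (adjusted p = 0.529). NQO1 stood at 1.48 and 1.52 against 1.45 and 1.65 (-0.050 ± 0.100, adjusted p = 0.826), and SRXN1 at 3.26 and 3.27 against 3.27 and 3.15 (0.056 ± 0.081, adjusted p = 0.747). Both pairs of groups overlapped.

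NFE2L2 itself was at background. Its probe read -7.28 and -7.98 after siRNA in MIA PaCa-2, -8.29 and -7.74 on the parental ones, -8.02 and -7.88 on the Capan-1 siRNA arrays and -7.80 and -8.04 on the parental ones. Intensities lay between 0.964 and 1.58 units on all 8 arrays, and none was well above background. No level or change of the NFE2L2 transcript could be given from this probe.

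**Figure D2:**
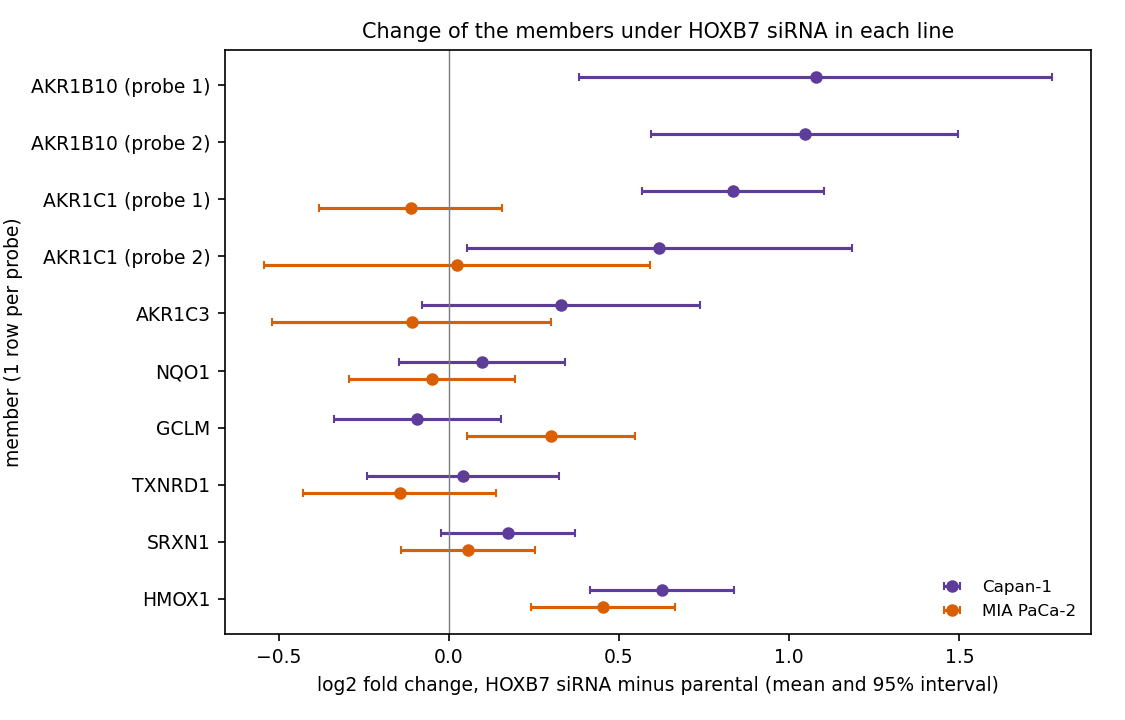
Log2 fold change of siRNA over parental cells (x axis) for each member probe that could be measured in a line, with the mean as a point and the 95% interval of the limma fit as a bar (2 arrays a group). The bars use the spread pooled over all 4 groups. The Capan-1 contrast chose the AKR1 genes, so its bars are a description and their place against 0 is not a test. In MIA PaCa-2 the bars of GCLM and HMOX1 lie above 0, though neither gene passed the adjusted test.

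Over all members, 8 of the 11 probes were tested in MIA PaCa-2, for 7 genes, and limma called 0 of them. Over all 23708 probes tested there, 1.34% were called higher and 1.38% lower. At an unadjusted p under 0.05, 2 member probes passed, HMOX1 and GCLM, both higher, beside 5048 of all 23708 probes, 2630 of them higher, so the members stood near the share of the whole array. The arrays of siRNA and parental cells did not overlap for 2 members higher and 1 lower (TXNRD1), beside 28.0% and 23.3% of all probes. An interval rule after the study's methods was also applied. It took the log2 ratio of siRNA to parental array for replicate 1 and for replicate 2, a pairing by number only. Both ratios had to pass, in the same direction, the limit holding 99% of absolute log2 ratios between the 2 parental arrays at like intensity. The rule was used on single probes. The study's further conditions, that a gene has 2 or more probes and that they agree, were left out. HMOX1, with 1 probe, could not meet them. By this rule 0 of these 8 were called, beside 0.588% of all probes.

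In Capan-1, 10 of the 11 member probes were measured. Their arrays did not overlap for 8, all higher, among them 5 of 5 AKR1 probes and 3 of 5 others (NQO1, SRXN1 and HMOX1), though AKR1C3, NQO1 and SRXN1 turned below 0 under spike-in scaling. Of all probes measured there, 27.1% were higher without overlap and 27.1% lower. The median log2 fold change was 0.83 for the AKR1 probes and 0.098 for the other members, beside -0.00083 for all probes. By the interval rule both AKR1B10 probes, both AKR1C1 probes and HMOX1 were called higher, AKR1C3, NQO1, GCLM, TXNRD1 and SRXN1 were not, and 1.17% of all probes were. Limma called 0.00428% of all probes in Capan-1, which was 1 probe and no member. Since this contrast chose the genes, these counts describe them and nothing is read from them.

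A wider list of 58 genes of the NRF2 pathway and the aldo-keto reductases, of which 57 had a probe, was set beside the members. In MIA PaCa-2, 66 of its 75 probes were tested, and 2 were called higher and 5 lower. BACH1, the repressor that competes with NRF2 at its elements, and NFE2L3, a relative of NRF2, rose. SLC7A11, the cystine transporter of glutathione synthesis, ME1, an enzyme of NADPH supply, the exporter ABCC3 (on both its probes) and ALDH3A1, an aldehyde dehydrogenase, fell. BACH1 and ALDH3A1 were each called on 1 probe, and their other probe was not called. The median log2 fold change of the list was -0.15, beside 0.022 for all probes, and 46 of the 66 probes were below 0, beside 10991 of all 23708. Most of these calls were lost when any 1 of the 8 arrays was left out, so the calls on single genes of the list are not firm. Leaving out a Capan-1 array does not change the MIA PaCa-2 log2 fold changes, only the estimate of the spread in the shared fit.

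The levels of these genes were as follows. BACH1 stood at 1.72 and 1.60 after siRNA and at 0.90 and 1.09 in parental MIA PaCa-2 cells, a log2 fold change of 0.66 ± 0.11 (SE, limma adjusted p = 0.0437). NFE2L3 stood at 1.61 and 1.44 against 0.97 and 1.03 (0.52 ± 0.091, adjusted p = 0.0462). Both were above every parental array. A second, dim BACH1 probe was at 0.33 ± 0.48 (limma adjusted p = 0.752) and was not called. ALDH3A1 had the largest fall, from -2.65 and -3.20 to -4.42 and -4.05 on its called probe, a log2 fold change of -1.31 ± 0.22 (adjusted p = 0.0434). Its other, brighter probe fell less, by -0.48 ± 0.097 (limma adjusted p = 0.0620), and was not called. SLC7A11 fell from 0.081 and 0.21 to -0.53 and -0.62 (-0.72 ± 0.093, adjusted p = 0.0253). ME1 fell by 0.70 (adjusted p = 0.0266), and the ABCC3 probes fell by 0.63 and 0.73 (adjusted p = 0.0397 and 0.0437).

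By role, the MIA PaCa-2 median was -0.33 for conjugation, reduction and export (14 probes, 3 called lower), -0.24 for NADPH supply (6 probes, 1 lower), -0.21 for glutathione (12 probes, 1 lower) and -0.37 for the other NRF2 targets (3 probes, 0 called by limma and 2 without overlap, both lower). For heme and iron it was 0.030 (9 probes), and for the other aldo-keto reductases 0.021 (5 probes); limma called 0 in both groups.

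In Capan-1 the list stood at a median log2 fold change of 0.066 over 68 probes, 46 of them above 0, beside 11639 of all 23367. Its arrays did not overlap for 29 probes higher and 11 lower, where 27.1% of all probes did so in each direction. AKR1B15, the closest relative of AKR1B10, had the largest difference of the list, at 0.70 and 0.72 after siRNA and at -0.34 and -0.22 in parental cells. That was a log2 fold change of 1.00 ± 0.28 (SE), on the probe that also lists AKR1B10. The SE again pools the MIA PaCa-2 arrays, where this probe was not well above background. ALDH3A1 was at -0.46 ± 0.22 on the probe called in MIA PaCa-2. Its other probe had means of 0.92 after siRNA and 1.20 in parental Capan-1 cells. SLC7A11 was at 0.30 ± 0.093. The groups thioredoxin and peroxiredoxin, heme and iron, glutathione and NADPH supply had medians from 0.11 to 0.15, and the other NRF2 targets one of 0.17 (3 probes). Conjugation, reduction and export stood at 0.037 (15 probes, 5 higher and 5 lower without overlap), the other aldo-keto reductases at 0.024 and the regulators of NRF2 at -0.0081.

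**Figure D3:**
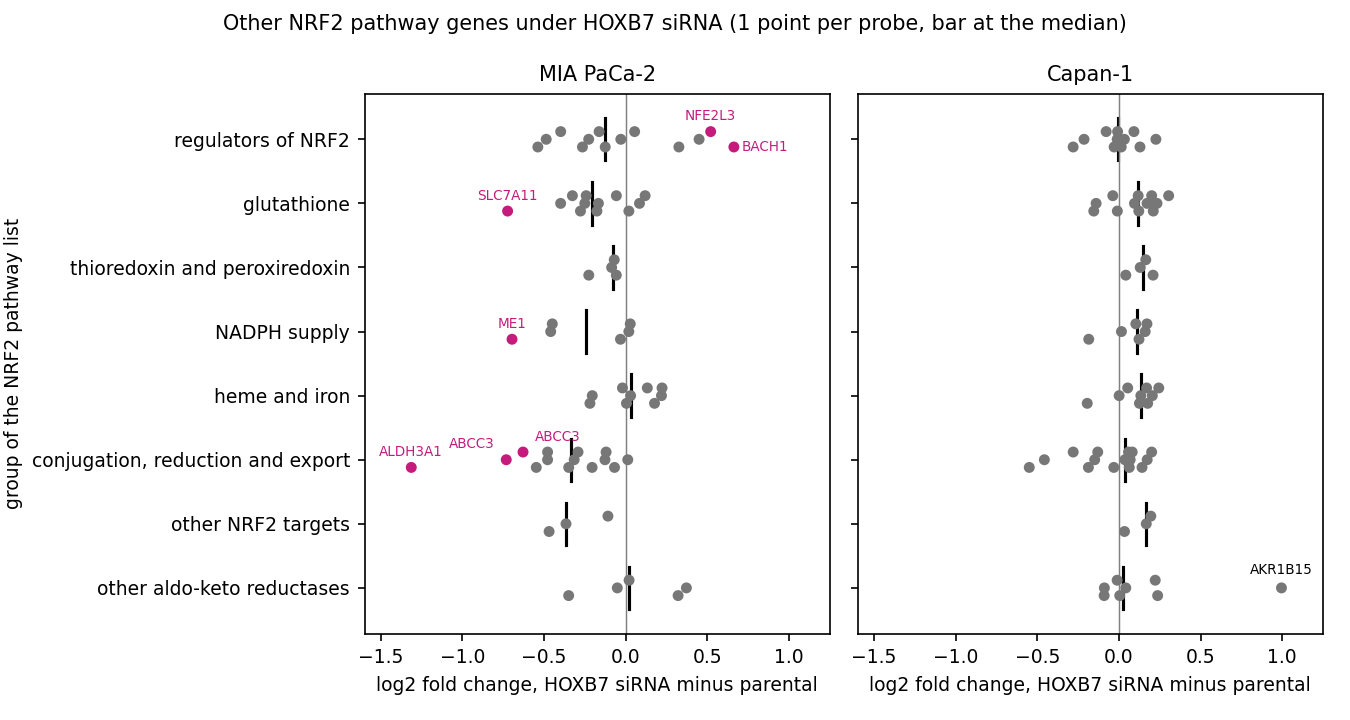
Log2 fold change of siRNA over parental cells (x axis) of each measured probe of the NRF2 pathway list, by role (rows), in MIA PaCa-2 (left) and Capan-1 (right), with a bar at the median of each role. Probes called by limma in MIA PaCa-2 are coloured and named, and in Capan-1 AKR1B15 lies apart from the other aldo-keto reductases at 1.00.

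Parental MIA PaCa-2 was then set against parental Capan-1. Of the 8 member probes well above background on all parental arrays, 6 were called higher and 1 lower in MIA PaCa-2, beside 39.3% and 31.1% of all probes tested. Those shares cover a wider set, of probes well above background in at least 1 of the lines, so the sets are unlike. The comparison of parental lines shares the Capan-1 parental arrays with the one that chose the genes. The AKR1B10 probes entered only through Capan-1, where they are high, so their calls, both lower in MIA PaCa-2, were fixed by that filter. AKR1B10 was at least 79.8-fold higher in Capan-1 on probe 2 (measured means 0.32 and -7.90), and on probe 1, which was well above background on 1 of 2 parental MIA PaCa-2 arrays, the means were 0.37 and -5.53. AKR1C3 was also higher in Capan-1, by 9.52-fold (limma adjusted p = 1.26e-05).

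The AKR1C1 probes went the other way. Probe 1 was 4.02-fold higher in parental MIA PaCa-2 (log2 difference 2.01 ± 0.11 SE, limma adjusted p = 1.61e-05) and probe 2 was 1.89-fold higher (0.92 ± 0.24, adjusted p = 0.0134). The call of probe 2 was lost without MIA PaCa-2 parental replicate 1 (adjusted p = 0.0663), without Capan-1 parental replicate 1 (0.0610) or without Capan-1 parental replicate 2 (0.0510). NQO1 was 2.88-fold higher in parental MIA PaCa-2 (adjusted p = 3.40e-05), HMOX1 1.44-fold (adjusted p = 0.00220) and GCLM 1.42-fold (adjusted p = 0.00484). Under scaling to the spike-in probes, HMOX1 and GCLM did not pass (adjusted p = 0.225 and 0.268). SRXN1, at 1.17-fold, lay at the threshold (adjusted p = 0.0497, and above it in 13 of 18 alternatives), and TXNRD1 did not pass (1.22-fold, adjusted p = 0.0720). Among the AKR1 reductases, AKR1C3 was thus called higher in Capan-1 and AKR1C1 in MIA PaCa-2.

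Between siRNA-treated cells, on probe 1, AKR1B10 was at least 168-fold higher in siRNA-treated Capan-1 than in siRNA-treated MIA PaCa-2, and at least 159-fold on probe 2, given without a test. AKR1C1 probe 1 remained lower on both Capan-1 siRNA arrays, at 1.75 and 1.83, than on any MIA PaCa-2 array. On AKR1C1 probe 2 the siRNA arrays of the lines overlapped, at 0.034 and 0.067 in Capan-1 and 0.75 and -0.0048 in MIA PaCa-2.

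The probes with the pattern most like that of AKR1C1 over the 8 arrays were sought by Euclidean distance between log2 values centred on their mean. The search covered 18820 probes of named genes, well above background on all Capan-1 arrays, and left the members out. Nearest to AKR1C1 probe 1 were STRADB (distance 0.43), MYLIP (0.43), DNAJC28 (0.48), PRPF39 (0.51) and TPMT (0.52). STRADB, for example, had means of 1.09 and 0.99 in MIA PaCa-2 siRNA and parental cells and of -0.20 and -0.76 in Capan-1. The distance takes in the difference between the lines as well as the siRNA change. None of these 5 genes was on the pathway list, and how near the members lay was not ranked. The list held at most 75 of the 18820 probes compared, so its absence from the 5 nearest says little. For AKR1B10, at or near background on the MIA PaCa-2 arrays, no such ranking is given.

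The promoters of the members, 250 bases before to 50 after each start in RefSeq (GRCh38.p14), were searched for the core of the antioxidant response element, TGACNNNGC, on both strands. Entries were found for 8 of the 10 genes, not for AKR1B10 or HMOX1. The motif stood in GCLM and TXNRD1 and in no entry of AKR1C1, AKR1C2, AKR1C3, NQO1, SRXN1 or NFE2L2, while 13.3% of the 35116 promoters held it. The stretches with the motif in capitals are shown because these genes are the ones of the members whose windows hold it.
GCLM, chr1:93909436-93909484, - strand: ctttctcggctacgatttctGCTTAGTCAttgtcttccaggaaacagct
TXNRD1, chr12:104215660-104215708, + strand: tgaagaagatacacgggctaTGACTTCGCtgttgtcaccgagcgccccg
TXNRD1, second start, chr12:104286910-104286958, + strand: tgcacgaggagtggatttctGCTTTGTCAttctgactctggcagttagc
The motif shown lay 34 bases before the start of GCLM and 99 and 102 bases before the starts of TXNRD1. A further match lay 8 bases before the first start of TXNRD1. It was on the strand opposite to the gene, as were the matches shown for GCLM and for the second start of TXNRD1. In Capan-1 the log2 fold change was -0.093 for GCLM and 0.042 for TXNRD1. A missing match says only that these letters are not in the window.

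The lines were checked against cell type markers. The ductal genes KRT7, KRT8, KRT18, KRT19, MUC1 and SOX9 were well above background in both lines. EPCAM and CDH1, defining epithelial markers, were well above background on all Capan-1 arrays (means of parental cells 5.91 and 3.75) and on no MIA PaCa-2 array. The mesenchymal markers were split, with VIM and ZEB1 higher in MIA PaCa-2 and CDH2 higher in Capan-1. VIM was at a mean of 7.94 in parental MIA PaCa-2 and -1.06 in parental Capan-1 cells, and the brighter CDH2 probe at -3.76 and 0.70. The ZEB1 probes were at 1.17 and -0.71 in parental MIA PaCa-2 and at -3.74 and -5.84 in parental Capan-1. Of the markers of other cell types, CPA1, CTRB1 and 3 of 5 PTPRC probes were at background on all 8 arrays, while CD14, CD3E, 1 PTPRC probe and 1 CELA3A probe were well above background on all 8. COL1A1 and 1 DCN probe were so on 7 arrays. PRSS1, an acinar trypsinogen, was well above background in Capan-1, with 3.59 and 3.46 after siRNA and 2.89 and 2.83 in parental cells. CD3E was at -1.09 and -1.26 against -1.58 and -1.70 in Capan-1 and at -1.26 and -2.26 against -3.05 and -3.09 in MIA PaCa-2. The part of these differences in the results of either line was not tested.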

How the data were processed

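The authors scanned 1-colour arrays (Agilent 4x44K) and quantified them with Agilent Feature Extraction 9.5.3, per the labels, and deposited the processed, background-corrected intensity of each spot. They also deposited a log2 table of the same intensities, which was used as an alternative, and other columns with spot flags and probe annotation on hg18. Here, spots with outlier flags and control spots were left out, spots of a probe were averaged on the log2 scale, and the 75th percentile of each array was subtracted. Groups were compared with limma 3.58.1 in R 4.3.3 in 1 fit over all 8 arrays, two-sided, with Benjamini-Hochberg adjustment over all probes tested and a threshold of 0.05. A probe entered a test where, in 1 or more of the groups compared, over 0.5 of its spots were well above background on each array. A lower bound ("at least") sets the brighter mean against the lowest signal well above background of the dimmer arrays.

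Members and lists were chosen with earlier results of these data known. All members were named, HOXB7 as the check, list genes called in MIA PaCa-2, and in each line the 3 list genes with the largest change without overlap; genes like AKR1C1 were the 5 nearest. Scripts were tested on simulated data. With 2 arrays a group precision is limited, and an exact permutation test of 2 against 2 cannot go below 0.333. The processing can set values near background: levels that follow the log2 of a nearly zero intensity have no order. Alternatives were normexp, other scalings, filters, fits and the interval rule (window of 501 probes). Some probe sequences are not reported here.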

Additional observations from a re-analysis of the deposited data

Results flagged for a closer look

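In 11 of the 64 probes of the pathway list measured in both lines, and so in 11 genes, siRNA arrays were all lower than the parental arrays in MIA PaCa-2 and all higher in Capan-1, and no list probe showed the opposite pattern. Of the genes named above, these were the cystine transporter SLC7A11 and the malic enzyme ME1. The log2 change in MIA PaCa-2 minus that in Capan-1 was -1.03 for SLC7A11 and -0.80 for ME1. The difference was not tested, since it includes the contrast that chose the members. The share of all probes with this opposite pattern was not counted. List probes lower without overlap in MIA PaCa-2 numbered 33 of 66, and those higher in Capan-1 29 of 68, beside 23.3% and 27.1% of all probes. Nothing is read from the count of 11.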

How the results depend on the processing

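The count of 0 member probes called in MIA PaCa-2 became 1 (HMOX1) with normexp, with probes well above background on all 8 arrays, or with an intensity trend in the spread, and was 0 when any array was left out. The 7 called probes of the pathway list became 12 with normexp or that stricter filter and 15 with the trend, but 0 without scaling, with spike-in scaling, without a filter, or with the line fitted alone, and 0 to 2 when 1 array was left out. Between parental lines 9 of 10 member probes tested were called, 2 of them the AKR1B10 probes whose calls the filter fixed. Of all 24960 probes tested, 17579 were called, so the count is not read as a result about the members. Some of the calls were lost when 1 array was left out, as given above for AKR1C1 probe 2.

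The Capan-1 median of the AKR1 probes, 0.83, was 0.75 with normexp, 0.68 without scaling, 0.44 with spike-in scaling, 0.62 over the probes well above background on all 8 arrays, and 0.79 to 0.88 when 1 array was left out. That of the other members, 0.098, was -0.060 without scaling, -0.30 with spike-in scaling and 0.027 to 0.17 when 1 array was left out. The median of all probes in Capan-1 moved to -0.16 and -0.40 under these 2 scalings. They shift all probes of an array alike, so the distances of both medians from it, 0.83 and 0.098, could not change. Spike-in scaling also turned AKR1C3, NQO1, TXNRD1 and SRXN1 below 0 in Capan-1. In MIA PaCa-2, AKR1C1 probe 2 turned to -0.19 without scaling, -0.11 with spike-in scaling, and lay at -0.35 to 0.40 when 1 array was left out (negative without siRNA replicate 1 or parental replicate 2). SRXN1 turned to -0.16 and -0.075 under these scalings and lay at -0.0011 to 0.11 when 1 array was left out. AKR1C3 lay at -0.35 to 0.13 and NQO1 at -0.15 to 0.047 then, and these 3 turned without parental replicate 2. The cause was not tested.

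Same-numbered arrays did not deviate together (MIA PaCa-2 correlation 0.021, Capan-1 0.028), so the numbers pair nothing. With the replicate block, 0 member probes and 0 list probes were called in MIA PaCa-2. Signals near background limit AKR1B10 in MIA PaCa-2 and NFE2L2.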
